A study of Zea mays with 15 samples.

Results

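Transcripts of maize chromatin genes were followed in the meristem of the seventh internode for 48 h after a spray with ethephon or with water. A probe set was taken as a member when its symbol in the array annotation, or a RefSeq synonym of that gene, was one of 27 maize chromatin-gene prefixes followed directly by a 3-digit number starting with 1, as in hda101 or SET104. The rule used names alone. It gave 65 of the 17621 probe sets on the array other than controls, which stood for 49 of the 1108 genes named on the array, under 17 of the prefixes. The other 10 prefixes, among them chb, chc and chr of chromatin remodelling, were the first-listed name of no probe set, so that remodelling was represented by cha101 alone. The annotation named 1 gene for 1452 probe sets, several for 1 and none for 16168, so members without a name on the array were not seen.

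The seedlings were grown in a greenhouse and treated at the jointing stage, when they had 8 leaves. Ethephon, a growth regulator that plants break down to ethylene, was given at 600 mg/L to 100 seedlings, and water to another 100. The 5 groups were ethephon at 24 h, water at 24 h, ethephon at 48 h, water at 48 h, and untreated seedlings collected at 0 h, with 3 arrays in each. Each array carried RNA pooled from 3 seedlings, so the tests speak of the spread between such pools within 1 greenhouse experiment, and the 15 arrays limit the precision. The labels name no mutant or transgene, and the variety was not given in the sources used here.

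In the nucleus DNA is wound on histones, and access to it is set by several kinds of protein. Histone chaperones and linker histones build and lock nucleosomes, and high mobility group (HMG) proteins bend DNA and loosen this packing. Acetyltransferases such as GCN5 add acetyl groups that go with active genes, deacetylases remove them, SET-domain enzymes methylate histones, and DNA methyltransferases such as MET1 copy methyl marks onto newly made DNA. Because chromatin must be rebuilt behind each replication fork, chaperones, linker histones and the maintenance methyltransferase are used most by dividing cells, of which an intercalary meristem has many.

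Array signals were linear MAS5 intensities, and differences below are log2 differences with the standard error of the limma fit. The median signal of the arrays lay between 297.8 and 370.4. RNA quality differed between groups. The 3'/5' index says in log2 units how much brighter the 3' than the 5' probe sets were for 5 control transcripts. A higher value means more 3' bias, as in less intact RNA. The index was 2.86 to 3.16 with ethephon and 2.51 to 3.09 with water at 24 h. At 48 h it was 2.66 to 2.83 with ethephon and 1.62 to 2.38 with water, without overlap. In untreated tissue it was 0.743 to 2.17, lowest on untreated array 2, which thus had the least 3' bias. LysX, a labelling spike, gave 21.1 to 34.4 at its 5' end at 24 h and 43.5 to 72.7 elsewhere. BioB, another spike, gave 654.7 to 756.4 with ethephon and 471.9 to 523.9 with water at 24 h, without overlap. At 48 h it gave 353.9 to 603.8 with ethephon and 326.1 to 445.2 with water, which overlapped. The part of these technical differences in the results at 24 h and at 48 h was not tested.

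The labelled tissue was checked against markers. The meristem gene kn1 averaged a signal of 3540.0 over all arrays, while cyc1, cyc2 and cyc3 lay below the signal limit described next. Of 6 dividing-meristem genes above it, 5 were lower with ethephon than with water at each time, with a median log2 difference of -0.39 at 24 h and -0.43 at 48 h, and none passed the test. Their summed signal spanned 5905 to 7836 with ethephon and 8098 to 10605 with water at 24 h, and 5833 to 11087 with ethephon and 7285 to 12606 with water at 48 h. All 5 secondary wall and xylem genes were higher with ethephon at both times, with medians of 1.20 at 24 h and 0.63 at 48 h, and none passed. Their sum was high on ethephon array 3 at 24 h (33634) and on ethephon arrays 1 and 2 at 48 h (32665 and 19691), against 9434 to 16544 on the water arrays. On the untreated arrays it was 17421 to 24165, a range that holds ethephon array 2 at 48 h. The part of either marker group in the results below was not tested, and in such bulk tissue fewer cells of a type and less RNA per cell cannot be told apart.

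A mean signal of 218.3, the 40th percentile over all probe sets, was set as the lower limit for testing. It kept 10573 probe sets in all and 52 of the 65 members, for 44 of the 49 genes. Mean member signals ran from 12.7 to 9917, the highest that of hon102, a gene for a linker histone of the H1 class. The members next below the limit were a probe set of sdg110 (182.3), SET102 (169.8) and a probe set of DMT105 (147.3), and those next above it were hac106 (268.3), dmt106 (274.0) and another probe set of DMT105 (286.1). Not tested were 5 genes with every probe set below it, namely SET102, sdg118 (142.3), hda106 (84.9), sdg113 (79.1) and epl101 (77.3).

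At 24 h most chromatin genes gave a lower signal with ethephon than with water, but no single one passed the test. Of the 52 probe sets 41 were lower and 11 higher, that is 78.8% lower against 53.4% of all probe sets kept, and the median log2 difference was -0.28 against -0.03 over all. Counted by gene, with the brightest probe set for each, 33 of 44 were lower and the median was -0.17. The lower genes were led by DNA methyltransferases, histone chaperones and HMG-group genes, and the deacetylase gene hda101 and the acetyltransferase gene hac108 led those that were higher. Limma with Benjamini-Hochberg adjustment called 0 members and 0.0% of all probe sets at an adjusted p under 0.05, and the lowest adjusted p of a member was 0.562. At an unadjusted p under 0.05 stood 0 members, against 8.99% of all probe sets kept. The genes were read on the same arrays and varied together, so these counts describe the arrays and are not independent evidence of a shift. Leaving out 1 array turned the sign for 13 of the 44 genes at 24 h, and for 31 of them at 48 h.

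Groups that did not overlap were no more frequent among members than elsewhere. All 3 ethephon arrays lay below all 3 water arrays for 6 probe sets (nfa101, nfa102, 1 of nfa104, SET104, hda102 and hdt102), 11.5% of the members and 10.8% of all probe sets kept. All 3 lay above for 1 probe set, hda101, or 1.92% of the members against 7.05% of all. Without the signal limit 49 of all 65 member probe sets were lower, with a median of -0.27.

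**Figure D1:**
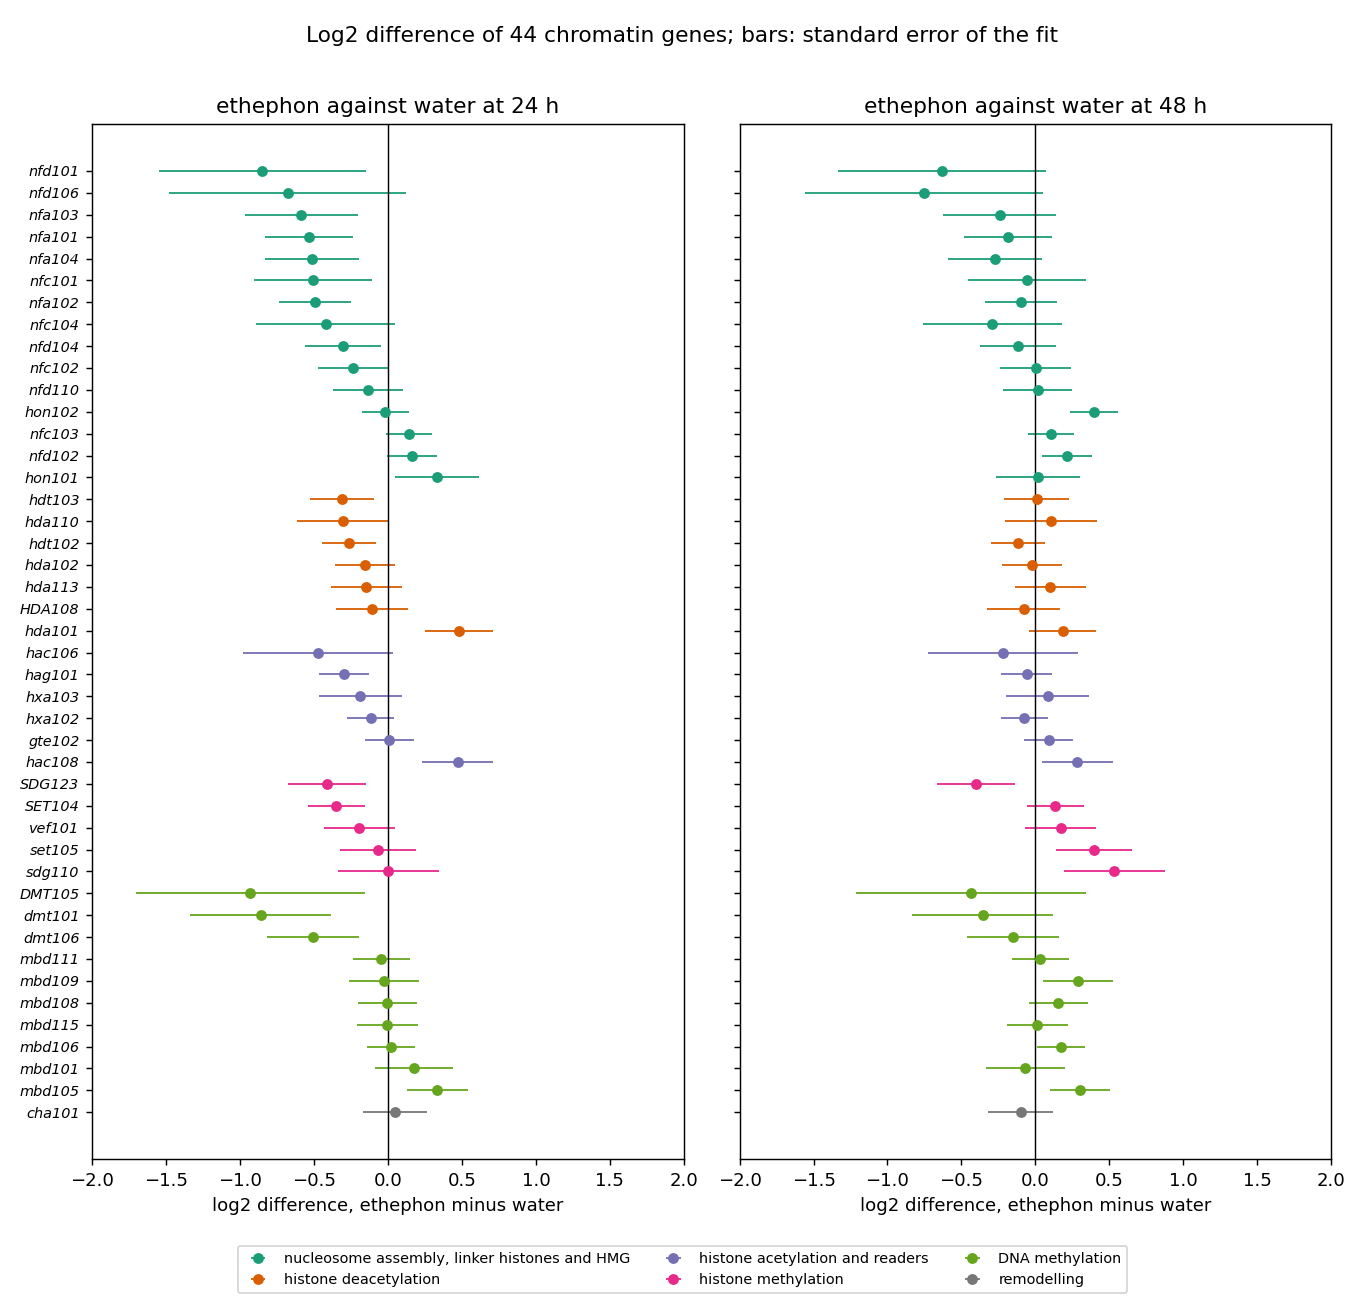
Log2 difference between ethephon and water (horizontal axis) for the 44 chromatin genes above the signal limit, at 24 h (left) and 48 h (right); points are fitted differences, bars are standard errors, colours are roles. At 24 h 33 points lie left of 0, with DMT105 at -0.93 and hda101 at 0.48 at the ends, and at 48 h 21 points lie left of 0.

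At 48 h the chromatin genes leaned to neither side with all arrays weighted equally, which other settings changed. Of the 52 probe sets 27 were lower and 25 higher with ethephon, 51.9% lower against 47.2% of all, and the median was -0.03 against 0.02 over all. Limma called 0 members and 0.0% of all probe sets. At an unadjusted p under 0.05 stood 1 member, hon102, against 3.24% of all probe sets kept. The ethephon arrays lay wholly above the water arrays for 2 probe sets, hon102 and mbd105, where 5.14% of all did, and wholly below for 0, where 3.9% of all did. Of the 44 genes 19 were lower at both times, 14 lower at 24 h and higher at 48 h, 9 higher at both and 2 higher at 24 h and lower at 48 h. The lowest adjusted p of a member was 0.994, and leaving out water replicate 3 or ethephon replicate 1 at 48 h moved the median to -0.21 or 0.08. With arrays weighted by how closely they followed their group, 41 of 52 were lower at 48 h (median -0.20) and 38 of 52 at 24 h (median -0.21). These array weights use no measure of RNA or labelling quality. With the 3'/5' index in the model 37 of 52 were lower at 48 h (median -0.15) and 44 at 24 h (median -0.29).

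The change between the times was formed as the ethephon-water difference at 48 h minus that at 24 h, which uses the same 12 arrays as the results above. Members were chosen with a shift of chromatin genes between these times in the same data already known. The counts given here are therefore no independent support for that shift. The change was above 0 for 44 of 52 probe sets, 84.6% against 55.2% of all kept, with a median of 0.23 against 0.04 over all. It was above 0 for all 5 histone methylation genes (median 0.46), for 8 of 10 DNA methylation genes (0.16) and for 12 of 15 genes of nucleosome assembly, linker histones and HMG proteins (0.22). Limma called 0 members and 0.0% of all probe sets. At an unadjusted p under 0.05 stood 0 members, against 0.927% of all. The median rested on single arrays at 48 h, as it was 0.03 without ethephon replicate 3, with 33 of 52 above 0, and likewise 0.03 without water replicate 3. It was 0.07 with array weights, and 0.35 without either ethephon or water replicate 1.

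Histone chaperones of the NAP type, which carry H2A and H2B to nucleosomes, are listed under the prefix nfa. For nfa102 the signals were 1607, 1725 and 993 with ethephon and 1954, 2261 and 1741 with water at 24 h. The groups did not overlap, by the margin between ethephon array 2 and water array 3, and the difference was -0.49 ± 0.24 (limma adjusted p = 0.563). For nfa101, the brightest probe set of this prefix, the signals were 2574, 2644 and 1762 with ethephon and 3471, 3604 and 2915 with water, again without overlap, and the difference was -0.53 ± 0.30 (adjusted p = 0.568). Ethephon array 3 was lowest for both genes, and without it the differences were -0.25 and -0.35. The other members of the prefix, nfa103 and nfa104, gave -0.59 ± 0.38 and -0.51 ± 0.32, so that all 4 nfa genes were lower at 24 h. At 48 h the 4 differences lay between -0.27 for nfa104 and -0.10 for nfa102, each within 1 standard error of 0, and all 4 were above 0 without ethephon replicate 1 (0.02 to 0.12).

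The prefix nfc covers WD-repeat proteins of the MSI and RbAp type, which bind H3 and H4 and sit in assembly, deacetylase and Polycomb complexes. Of its genes nfc101, nfc102 and nfc104 were lower with ethephon at 24 h, by -0.51 ± 0.40, -0.23 ± 0.24 and -0.42 ± 0.47, and nfc103 was higher by 0.14 ± 0.16. At 48 h they gave -0.06, 0.00 and -0.29, and nfc103 gave 0.10. No difference in this prefix exceeded 1.5 standard errors at either time.

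HMG-group genes, under the prefix nfd, differed among themselves. Signals of nfd101 were 2312, 834 and 1178 with ethephon and 2307, 3187 and 1804 with water at 24 h, and 594, 2154 and 3739 with ethephon and 4189, 3077 and 1378 with water at 48 h. The groups overlapped at both times, and the spread within the ethephon group at 48 h was wider than any difference between group means. The differences were -0.85 ± 0.70 and -0.63 ± 0.70. Without ethephon replicate 1 the difference of nfd101 at 48 h was 0.12. Signals of nfd106 were 1569, 434 and 631 with ethephon and 765, 2080.0 and 1110.2 with water at 24 h, and 228, 1664 and 2415 with ethephon and 2488, 1957 and 905 with water at 48 h. Here too the groups overlapped, and ethephon array 1 at 48 h was the lowest of all. The differences of nfd106 were -0.68 ± 0.80, or -0.28 without ethephon replicate 2, and -0.75 ± 0.80, which turned to 0.29 without ethephon replicate 1, and both genes are given here because of the size of these values, outside the naming rule. By contrast nfd104 (hmg2), the brightest of the prefix, gave -0.31 ± 0.26 and -0.12 ± 0.26, and nfd102 (HMGe) gave 0.16 ± 0.17 and 0.21 ± 0.17. The gene nfd110, ssrp1, codes for a subunit of the FACT complex that moves nucleosomes out of the way of polymerases, and it gave -0.13 ± 0.24 and 0.01 ± 0.24.

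Linker histones seal the DNA where it enters and leaves the nucleosome. The signals of hon102 (his1a) were 10727, 10648 and 10279 with ethephon and 9328, 7565 and 7285 with water at 48 h. The 3 ethephon arrays lay close together and above every water array, and the difference was 0.40 ± 0.16, the lowest p among members at 48 h (limma adjusted p = 0.994). At 24 h its signals were 10015, 7522 and 11545 with ethephon and 11439, 9397 and 8415 with water, which overlapped, with a difference of -0.02 ± 0.16. The change between times was 0.42 ± 0.23 (adjusted p = 0.99987), and 0.24 without ethephon replicate 2 at 24 h. The second linker histone gene, hon101, gave 0.33 ± 0.28 at 24 h and 0.02 ± 0.28 at 48 h. Over the 15 genes of assembly, linker histones and HMG proteins, 12 were lower at 24 h (median -0.42) and 9 at 48 h (median -0.10), and none passed.

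**Figure D2:**
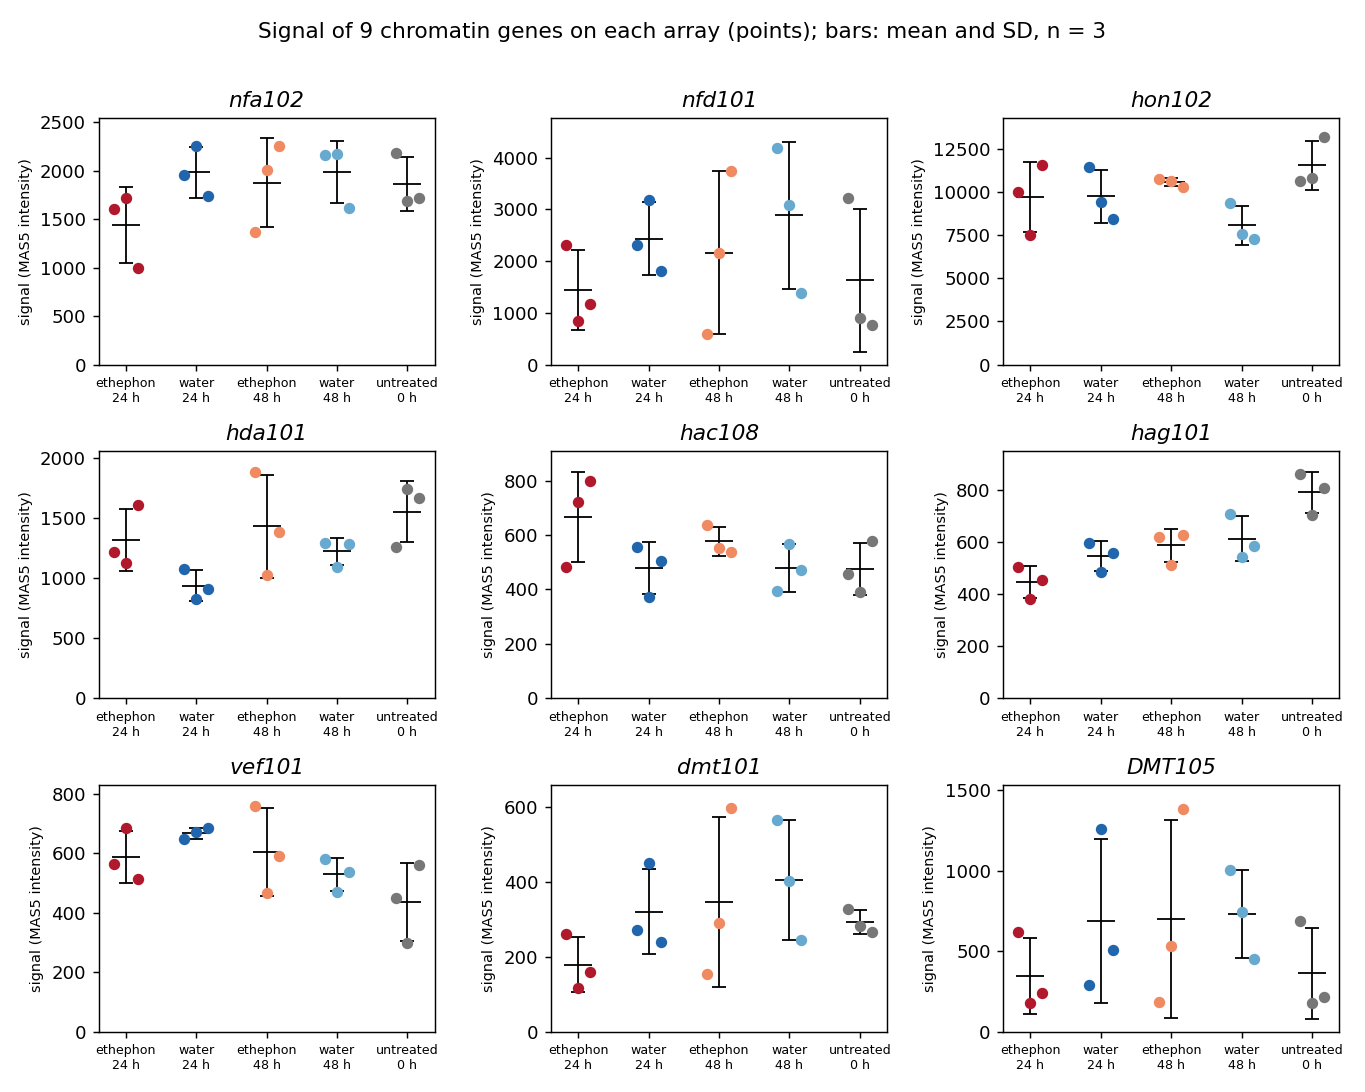
Signal (vertical axis, MAS5 intensity, linear from 0) of 9 chromatin genes on every array; coloured points are the arrays of each group, black bars the mean and SD of 3. The 3 ethephon points at 24 h lie below all water points for nfa102 and above them for hda101, while DMT105 and nfd101 spread widely within each group.

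Among the 7 deacetylase genes above the limit, hda101 was the only one with a higher mean log2 signal under ethephon at 24 h. The gene hda101 codes for a class I deacetylase of the RPD3 type, and its signals were 1218, 1123 and 1611 with ethephon and 1078, 824 and 913 with water at 24 h. Every ethephon array lay above every water array, and the difference of 0.48 ± 0.23 had the lowest p of all members (limma adjusted p = 0.562). At 48 h the signals were 1887, 1030.2 and 1382 with ethephon and 1296, 1096 and 1286 with water, which overlapped, with a difference of 0.19 ± 0.23. The other 6 deacetylase genes tested were lower at 24 h, between -0.31 for hdt103 and -0.11 for HDA108 (hd1b). Without ethephon replicate 2 HDA108 gave 0.04, and without water replicate 1 hda113 gave 0.02. RefSeq lists the synonym rpd3 for hda101 and also for a second gene, Hda1, which has no numbered name of the rule. That gene, in the separate list as rpd3, gave -0.28 ± 0.35 at 24 h and 0.01 ± 0.35 at 48 h, and its difference from hda101 was not tested.

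The plant-specific HD2-type deacetylases are listed under hdt and are found in the nucleolus. For hdt102 (HD2b) the signals were 3268, 3177 and 3205 with ethephon and 3615, 4375 and 3643 with water at 24 h. These groups did not overlap and the difference was -0.26 ± 0.18 (adjusted p = 0.587). At 48 h the signals were 3284, 3876 and 5134 with ethephon and 5037, 4558 and 3649 with water, overlapping, with -0.12 ± 0.18. For hdt103 (HD2c), the brightest of the prefix, the differences were -0.31 ± 0.22 and 0.01 ± 0.22. The deacetylase list as a whole had 6 of 7 genes lower at 24 h (median -0.15) and 3 of 7 at 48 h (median 0.01).

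Acetyltransferase genes and readers of acetyl marks split. The gene hac108, which RefSeq also lists as ham101, had signals of 481, 723 and 799 with ethephon and 558, 371 and 506 with water at 24 h. Ethephon arrays 2 and 3 were above all water arrays and ethephon array 1 was not, and the difference was 0.47 ± 0.24 (limma adjusted p = 0.563), or 0.30 without water replicate 2. At 48 h it was 0.28 ± 0.24. The gene hag101 codes for GCN5, the acetyltransferase of the SAGA coactivator, and its signals were 502, 379.5 and 456 with ethephon and 595, 486 and 558 with water at 24 h. They overlapped through ethephon array 1 and water array 2, and the difference was -0.30 ± 0.17. At 48 h it was -0.06 ± 0.17.

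ADA2, the partner of GCN5 in the same coactivator in yeast and Arabidopsis, is coded by hxa102, which gave -0.12 ± 0.16 at 24 h and -0.08 ± 0.16 at 48 h. The bromodomain gene gte102, whose product binds acetylated histone tails, gave 0.01 ± 0.17 and 0.09 ± 0.17. For hac106 (hat1), the dimmest gene of the list, the differences were -0.47 ± 0.50 and -0.22 ± 0.50. Of the 6 genes of the list 4 were lower at 24 h (median -0.15) and 3 at 48 h (median 0.01).

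Histone methylation was represented by 4 SET-domain genes and by vef101, whose product resembles EMF2, a subunit of the Polycomb complex that methylates histone H3 in Arabidopsis. For SET104 the signals were 369.8, 355 and 323 with ethephon and 524, 432 and 388 with water at 24 h, and 388, 356 and 470.0 with ethephon and 404, 382 and 317 with water at 48 h. The groups did not overlap at 24 h and overlapped at 48 h, with differences of -0.35 ± 0.19 and 0.14 ± 0.19, and the change between times was 0.49 ± 0.28 (limma adjusted p = 0.99987). It was 0.26 with array weights. The gene set105 had signals of 1234, 825 and 1750.3 with ethephon and 951, 972 and 847 with water at 48 h. Ethephon arrays 1 and 3 lay above the water arrays and ethephon array 2 below them, and the difference was 0.40 ± 0.26, or 0.13 without ethephon replicate 3.

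The gene sdg110 had signals of 389, 276 and 378 with ethephon and 371, 154 and 234 with water at 48 h. Water array 2 was lowest, and the difference of 0.53 ± 0.34 was 0.22 without it and 0.05 with the 3'/5' index in the model. The sdg110 probe set next below the signal limit went the other way at 48 h. Its signals were 209, 195 and 172 with ethephon and 171, 254 and 232 with water, which overlapped. For SDG123 the signals were 266, 352 and 444 with ethephon and 496, 546 and 353 with water, which overlapped, with a difference of -0.40 ± 0.26 that was -0.21 without ethephon replicate 1. At 24 h SDG123 gave -0.41 ± 0.26, sdg110 0.00 ± 0.34 and vef101 -0.19 ± 0.24. Of the 5 genes 4 were lower at 24 h (median -0.19) and 1 at 48 h (median 0.17).

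The DNA methylation list holds 3 methyltransferases, the writers, and 7 genes with a methyl-CpG-binding domain, the readers. The writer dmt101, met1, maintains CG methylation, and its signals were 260.4, 118 and 159 with ethephon and 273, 449.8 and 240.2 with water at 24 h. Ethephon array 1 overlapped the water group, and the difference was -0.86 ± 0.48 (limma adjusted p = 0.567), that is 1.82-fold lower. The chromomethylase gene DMT105, Zmet5, which acts at CHG sites, had 618, 177 and 242 with ethephon and 288, 1258 and 508 with water at 24 h. The groups overlapped, the water arrays alone spanning 288 to 1258, and the difference was -0.93 ± 0.78, or -0.36 without water replicate 2. The third writer, dmt106, gave -0.51 ± 0.31. At 48 h the 3 writers gave -0.36 ± 0.48, -0.44 ± 0.78 and -0.15 ± 0.31.

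Without ethephon replicate 1 at 48 h dmt101, DMT105 and dmt106 gave 0.12, 0.30 and 0.03. The readers gave smaller values. At 24 h the 7 mbd genes lay between -0.04 for mbd111 and 0.33 for mbd105, and 5 of the 7 were within 0.05 of 0. At 48 h they lay between -0.07 for mbd101 and 0.30 for mbd105. Signals of mbd105 were 2157, 1959 and 1822 with ethephon and 1784, 1808 and 1277 with water at 48 h, with no overlap, and the difference of 0.30 ± 0.20 was 0.14 without water replicate 3 (limma adjusted p = 0.994). The brightest reader, mbd106, gave 0.02 ± 0.16 and 0.17 ± 0.16. Of the 10 genes of the list 7 were lower at 24 h (median -0.02) and 4 at 48 h (median 0.02). The difference between writers and readers was not tested. The remodelling gene cha101 gave 0.05 ± 0.22 and -0.10 ± 0.22.

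How far replicate arrays differed was not the same for all members. The SD between arrays of a group, pooled over the 5 groups, was 1.10 log2 units for nfd106, 1.05 for DMT105, 0.96 for nfd101, 0.65 for hac106, 0.62 for dmt101 and 0.61 for nfc104, 6 genes above the 80th percentile of all probe sets kept. It was 0.16 for hxa102, 0.17 for nfc103, 0.18 each for hag101, gte102 and mbd106 and 0.19 each for nfd102 and SET104, 7 genes below the 20th percentile. The median over the 44 genes was 0.30, against 0.33 over all probe sets kept. By role it was highest for assembly, linker histones and HMG proteins (0.38) and was 0.23 for acetylation and readers, 0.27 for DNA methylation, 0.28 for deacetylation and 0.31 for histone methylation.

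**Figure D3:**
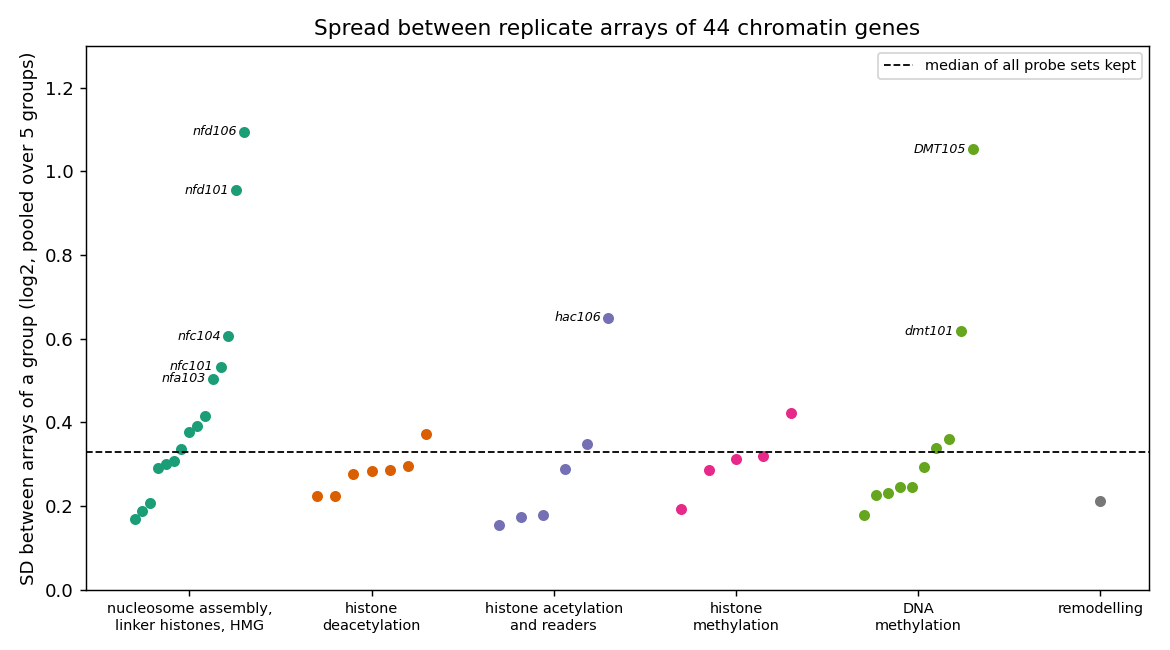
SD between replicate arrays of the log2 signal (vertical axis, pooled over 5 groups of 3) for 44 chromatin genes by role; the dashed line is the median of all probe sets kept, 0.33. Genes above 0.5 are named, led by nfd106 (1.10), DMT105 (1.05) and nfd101 (0.96).

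The 6 widely spread genes varied together from array to array. Each was highest on ethephon array 1 and water array 2 at 24 h, on ethephon array 3 and water array 1 at 48 h, and on untreated array 1. These were also the highest arrays of pcna1, the replication clamp and 1 of the 6 dividing-meristem markers tested. Its signals were 886, 300.2 and 497 with ethephon and 429, 1980.1 and 1328 with water at 24 h. At 48 h they were 201, 1162 and 2112 with ethephon and 3043, 1514 and 901 with water. Summed over those 6 markers, the signal was highest on ethephon array 3 at 24 h (7836, against 7382 on array 1). In untreated tissue the sum was narrowly highest on array 3 (7408, against 7397 on array 1). Their median log2 deviation from the all-array mean was highest on ethephon array 1 at 24 h (0.10). In untreated tissue it was highest on array 3 (-0.01, against -0.47 on array 1). In the other groups both measures were highest on the same arrays as pcna1. Over all members 13 of 52 probe sets (25.0%), for 11 genes, had the same set of highest arrays as pcna1, against 7.05% of all probe sets kept. Of these genes 7 belonged to assembly, linker histones and HMG proteins (nfa103, nfc101, nfc102, nfc104, nfd101, nfd104 and nfd106), 2 to DNA methylation (dmt101 and DMT105), and 1 each to deacetylation (hdt102) and acetylation (hac106). None of the 7 mbd genes and none of the 5 histone methylation genes had it. The set was noticed in these values and is a description of the arrays. Ethephon array 3 at 48 h is also an array whose removal moved the medians above. Untreated array 2, lowest in the 3'/5' index and in median signal (297.8), had the lowest pcna1 signal in its group (585). In the other groups the order differed. At 24 h the arrays lowest in the index, ethephon array 1 and water array 2, had the highest pcna1 signal of their groups. At 48 h these were ethephon array 2 and water array 2, with the middle pcna1 signal of their groups. The part of dividing cells or of RNA quality in this pattern was not tested.

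**Figure D4:**
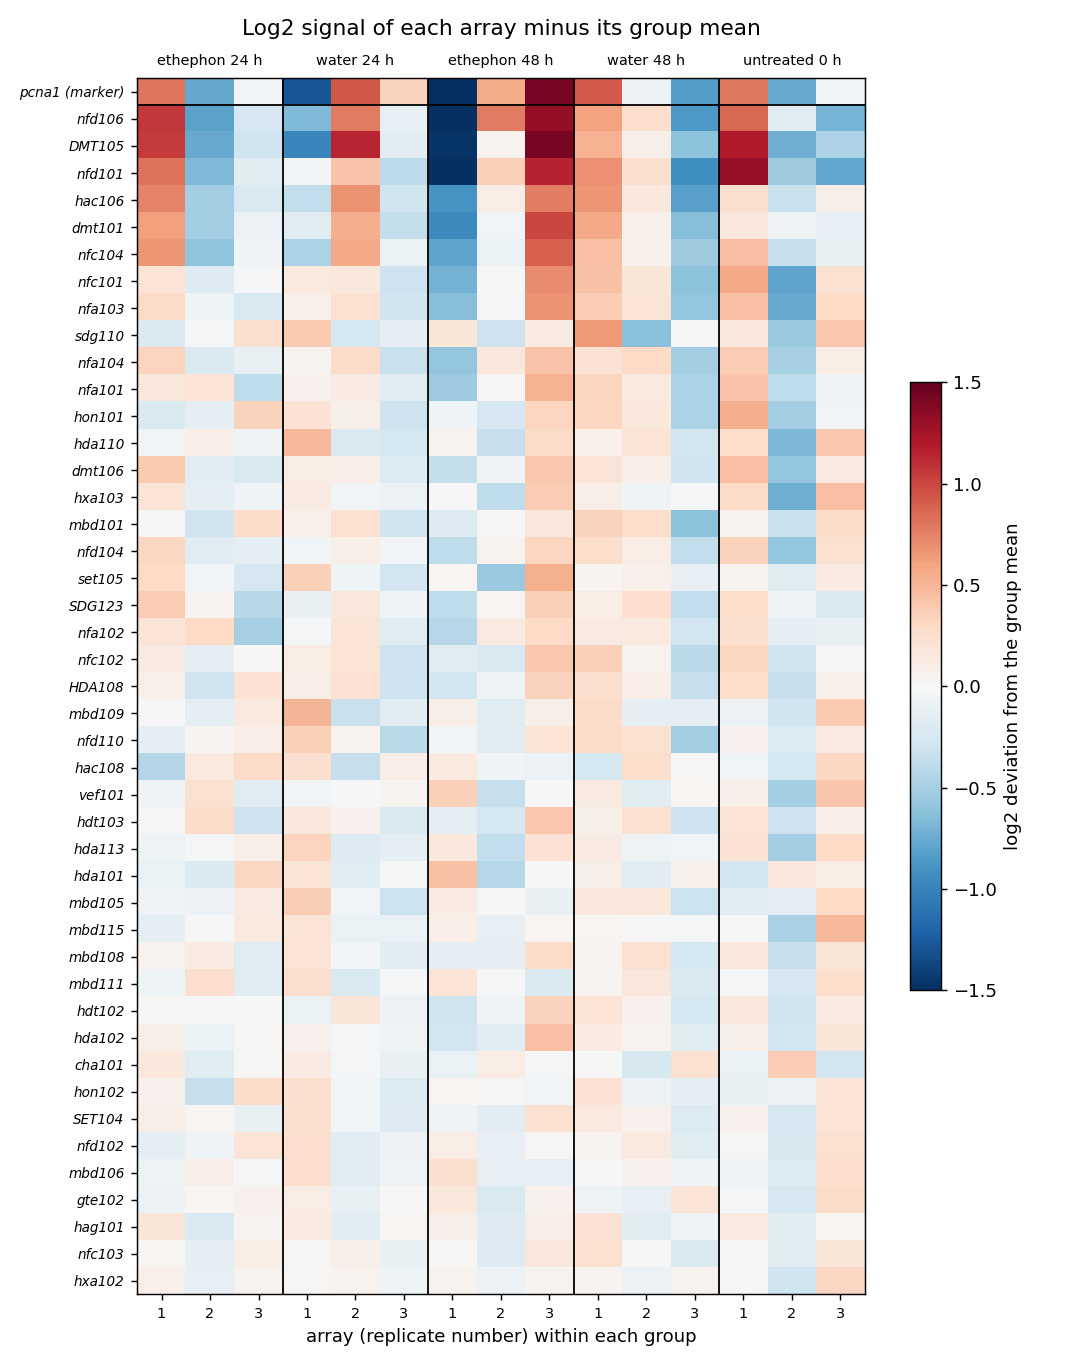
Log2 signal of each array minus the mean of its group, for pcna1 (top row) and the 44 chromatin genes ordered by spread; columns are the 3 arrays of each group, red is above and blue below the group mean. In the upper rows ethephon array 3 at 48 h is red and ethephon array 1 blue, as for pcna1, and the lower rows, from hxa102 upwards, are pale.

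Water-sprayed tissue was set against untreated tissue, from which it differed in time and handling and also in RNA and labelling quality. The 3'/5' index was 2.51 to 3.09 with water at 24 h and 0.743 to 2.17 untreated. LysX was 21.1 to 32.2 with water at 24 h and 52.6 to 72.7 untreated. In this design the parts of time, handling and quality cannot be told apart. At 24 h hda101 and hag101 were lower and vef101 and nfc101 higher in water-sprayed tissue, by -0.72, -0.53, 0.66 and 0.88, and none passed. Of 52 probe sets 37 were higher, 71.2% against 54.1% of all, with a median of 0.14 against 0.05. Limma called 0 members and 1.72% of all probe sets (182), and at an unadjusted p under 0.05 stood 5 members against 18.9% of all. The water arrays lay wholly above the untreated arrays for 4 probe sets (vef101, nfc101, mbd108 and 1 of hdt103) where 12.6% of all did, and wholly below for 2 (hda101 and hag101) where 11.0% of all did. Without untreated replicate 2, the array with the lowest 3'/5' index, the median was -0.01. With the index in the model it was -0.04, and with array weights 0.01. Markers moved beside it: all 6 dividing-meristem genes were higher in water-sprayed tissue at 24 h (median 0.39, 3 at an unadjusted p under 0.05) and all 5 secondary wall and xylem genes lower (median -1.37, 2 at such a p). None of these passed, and their part in the result was not tested.

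For hda101 the signals were 1078, 824 and 913 with water at 24 h and 1261, 1739 and 1665 in untreated tissue, apart, with a difference of -0.72 ± 0.23 (limma adjusted p = 0.124). For hag101 they were 595, 486 and 558 with water and 861, 703 and 806 untreated, also apart, with -0.53 ± 0.17 (adjusted p = 0.131). For vef101 they were 646, 671 and 683 with water and 449.6, 297 and 560.2 untreated. The water arrays were within a narrow band above the untreated ones, and the difference was 0.66 ± 0.24 (adjusted p = 0.169), though 0.41 without untreated replicate 2 and 0.06 with the 3'/5' index in the model. Those of nfc101 and mbd101 were 0.88 ± 0.40 and 0.56 ± 0.27 (adjusted p = 0.258 and 0.279), that of nfc101 being 0.48 without untreated replicate 2. The hda101 value with ethephon at 24 h, 1317 ± 259 against 938 ± 129 with water (SD, n = 3 each), lay between the water and untreated means.

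At 48 h 40 of 52 probe sets were higher with water than in untreated tissue, 76.9% against 53.6% of all, with a median of 0.15 that was 0.02 without untreated replicate 2. Limma called 0 members and 0.794% of all probe sets (84), and at an unadjusted p under 0.05 stood 1 member, hon102, against 9.91% of all. The signals of hon102 were 9328, 7565 and 7285 with water and 10651, 10775 and 13173 untreated, without overlap, and the difference was -0.52 ± 0.16 (adjusted p = 0.244). It was the only member with separate groups and lay lower with water, 1.92% of the members against 6.62% of all probe sets. Wholly higher with water lay 0 members, where 7.05% of all did. Next by p came hag101 (-0.37 ± 0.17), nfc102 (0.44 ± 0.24), nfd102 (-0.31 ± 0.17) and nfc104 (0.84 ± 0.47). That of nfc102 was 0.26 without water replicate 1, and its 3 probe sets ran from 0.11 to 0.44. That of nfd102 was -0.20 without untreated replicate 3. All 6 dividing-meristem genes were higher with water at 48 h than untreated (median 0.57), as were 3 of 5 secondary wall and xylem genes (median 0.10). The ethephon arrays of hon102 at 48 h averaged 10551 ± 239 against 8059 ± 1107 with water and 11533 ± 1422 untreated (SD, n = 3 each), so that the water mean lay below both others.

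Between the 2 times, signals with ethephon were higher at 48 h than at 24 h for 42 of 52 probe sets, 80.8% against 56.2% of all, with a median of 0.22 against 0.04 over all, or 0.05 without ethephon replicate 3 at 48 h. A shift of chromatin genes between these times was known when members were chosen, so this count is no independent support for it. Limma called 0 members and 0.0% of all probe sets, and at an unadjusted p under 0.05 stood 1 member, hag101, against 3.45% of all. Signals of hag101 were 621, 512 and 628 with ethephon at 48 h and 502, 379.5 and 456 with ethephon at 24 h, without overlap, and the difference was 0.40 ± 0.17 (adjusted p = 0.988). Next by p were hdt102 (0.32 ± 0.18), dmt101 (0.81 ± 0.48), nfa102 (0.39 ± 0.24) and set105 (0.39 ± 0.26). Those of hdt102, dmt101 and set105 were 0.15, 0.31 and 0.12 without ethephon replicate 3 at 48 h, and that of nfa102 was 0.14 without ethephon replicate 3 at 24 h. Of the marker genes, 4 of 6 for dividing meristem (median 0.14) and 4 of 5 for secondary wall and xylem (median 1.08) were higher at 48 h with ethephon. The 48 h arrays were wholly higher for 4 probe sets (hag101, hdt102, nfd110 and 1 of nfc102) where 3.91% of all were, and wholly lower for 0 where 3.59% of all were.

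With water 27 of 52 probe sets were higher at 48 h than at 24 h (51.9% against 48.3% of all), with a median of 0.00, and this balance depended on the setting. It was 41 of 52 higher with array weights (median 0.13) and 42 of 52 with the 3'/5' index in the model (median 0.11). It was 38 higher without water replicate 3 at 48 h (median 0.17), and 35 lower without water replicate 3 at 24 h (median -0.09) or water replicate 1 at 48 h (median -0.07). Of the marker genes, 3 of 6 for dividing meristem (median 0.04) and 4 of 5 for secondary wall and xylem (median 1.24) were higher at 48 h. Limma called 0 members and 0.0% of all probe sets, and at an unadjusted p under 0.05 stood 0 members, against 3.25% of all. Lowest by p were sdg110 (-0.63 ± 0.34), hda101 (0.39 ± 0.23), hon102 (-0.27 ± 0.16), mbd106 (-0.26 ± 0.16) and SET104 (-0.28 ± 0.19), each with an adjusted p of 0.999. Without water replicate 2 at 48 h sdg110 gave -0.31, and without water replicate 1 at 24 h hon102, mbd106 and SET104 gave -0.15, -0.14 and -0.16. The sdg110 probe set next below the signal limit went the other way, with a mean of 187 at 24 h and 219 at 48 h. The signals of hda101 were 1296, 1096 and 1286 with water at 48 h and 1078, 824 and 913 with water at 24 h, without overlap. The gene hda101 had the only probe set wholly higher at 48 h, where 4.97% of all were, and vef101, mbd106 and 1 of hdt103 were wholly lower, where 5.21% of all were.

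Several probe sets for a gene gave a check within the array, for 5 genes with more than 1 above the limit. The 2 of DMT105, 2 of nfa104, 3 of nfc102 and 2 of nfd104 were lower with ethephon at 24 h in every case, DMT105 by -0.93 and -0.82, nfa104 by -0.51 and -0.62, nfc102 by -0.46 to -0.23 and nfd104 by -0.31 and -0.37. In other comparisons they agreed less. The 3 of nfc102 ran from -0.24 to 0.00 for ethephon against water at 48 h. For water at 24 h against untreated tissue they ran from -0.33 to 0.44, and the 2 of nfa104 from -0.04 to 0.23, so that signs differed. The 4 probe sets of hdt103 disagreed in size for ethephon against water. Of these 3 gave -0.32 to -0.29 at 24 h and the dimmest gave -1.32 ± 0.96. The signals of that probe set were 1171, 488 and 95.6 with ethephon and 932, 932 and 985 with water at 24 h, and 250.0, 35.4 and 429 in untreated tissue. Its arrays differed more within a group than those of any other member (SD 1.31 log2 units), and against untreated tissue it gave 2.61 ± 0.96 in water at 24 h where the others gave 0.14 to 0.23. Names ending in s_at or x_at mark 6 of the kept probe sets, which can share sequence with related genes.

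**Figure D5:**
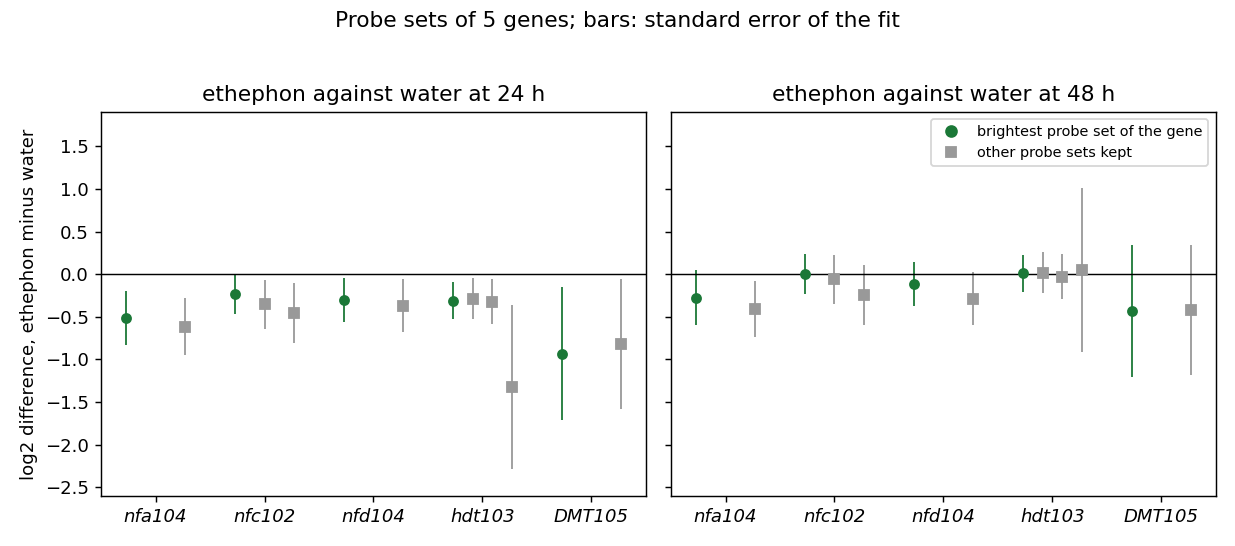
Log2 difference between ethephon and water (vertical axis) for each probe set above the signal limit of 5 chromatin genes, at 24 h (left) and 48 h (right); green circles are the brightest probe set of a gene, grey squares the others, bars standard errors. At 24 h all 13 points lie below 0, and the fourth probe set of hdt103 is at -1.32.

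Other chromatin genes, whose symbols lack the prefixes, were listed separately. Of 69 names 13 were genes on the array, and mez3, fie1 and met2 lay below the signal limit. Of the remaining 10, 8 were lower with ethephon at 24 h (median -0.31), where 53.4% of all probe sets kept were. At 48 h 5 were lower (median -0.06), where 47.2% of all were. The change between times was above 0 for 7 (median 0.36), where 55.2% of all were. Limma called 0 of the 10 in each of the 7 comparisons, where it called 0.0% to 1.72% of all probe sets. For ethephon against water at 24 h 1 of the 10 had an unadjusted p under 0.05, against 8.99% of all probe sets kept. For ethephon at 48 h against ethephon at 24 h 1 of the 10 did, against 3.45% of all. The brightest were the histone genes his2b5, with -0.34 ± 0.45 at 24 h and -0.52 ± 0.45 at 48 h, and his1, with 0.27 ± 0.65 and -0.66 ± 0.65. The gene with an unadjusted p under 0.05 for ethephon against water at 24 h was mez1, named after its value was seen. It codes for an Enhancer of zeste-type histone methyltransferase, and gave -0.76 ± 0.29 at 24 h (limma adjusted p = 0.545) and -0.14 ± 0.29 at 48 h. SPT16, the partner of SSRP1 in FACT, gave -0.17 ± 0.18 and 0.18 ± 0.18, and was likewise looked up after the values were seen.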

How the data were processed

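RNA from the meristem of the seventh maize internode was measured on 15 Affymetrix maize arrays, 3 in each of 5 groups. The deposited values are linear MAS5 intensities, per the submitters' processing notes, whose scaling target and software version the sources used here do not give. Detection calls were not used here. From 17734 probe sets 113 controls were set aside, and 10573 of the other 17621 with a mean signal of at least 218.3 were tested. Log2 signals, with no offset (lowest value 1, in 21 cells) and no further normalization, were fitted with 5 group means in limma 3.58.1 (R 4.3.3), with a trended empirical Bayes prior (prior degrees of freedom 2.62, residual 10) and Benjamini-Hochberg adjustment over all probe sets of each of the 7 comparisons, at a threshold of 0.05. The pipeline was tested on simulated data. Tables and figures used Python 3.11.15, pandas 2.3.3 and matplotlib 3.10.9.

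Names came from the array annotation and RefSeq, and all 65 members matched a RefSeq gene. No coordinates or sequences are given. Members, roles and lists were chosen with earlier results of these data known, among them a shift of chromatin genes between 24 and 48 h, so none of the counts is independent support for that shift. The brightest probe set stood for a gene. Named were the 5 genes with the lowest p in each comparison, the brightest gene of each prefix and the 2 brightest of the further list, and other genes are named to complete a prefix or role, or for their size, after their values were seen. Marker lists for photosynthetic leaf (5 genes tested) and phloem (4) were also read, and none of their genes passed. Their median differences between ethephon and water were -0.02 and 0.34 at 24 h and -0.19 and 0.05 at 48 h.

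Replicate numbers come from the sample titles. The labels do not say that a number marks shared plants or a shared day, so the fits had no block. For arrays with the same number, the correlation of their deviations from the group means had a median of -0.05 over 30 pairs (-0.54 to 0.63), and 10 pairs exceeded 0.1. For arrays with different numbers the median was 0.01 over 60 pairs (-0.54 to 0.60), and 21 pairs exceeded 0.1. Alternatives were an offset of 32, no signal limit and the 60th percentile as limit, quantile normalization, moderation without the trend, array weights, the 3'/5' index as a covariate, the replicate block, and leaving out each of the 15 arrays.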

Additional observations from a re-analysis of the deposited data

How the results depend on the processing

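No member passed the threshold in any of the 7 comparisons under any of the 23 alternative settings. The 35 differences of genes named by their p kept their sign wherever they were run, 14 of them not at the 60th percentile limit, which those genes lay below. These 35 were picked by low p in the same data, so kept signs were nearly fixed in advance and are no support. Over all 44 genes, leaving out 1 array turned the sign for 13 to 31 genes, depending on the comparison. Leaving out 1 array brought 23 of the 35 closer to 0 by over 1.5 times. The members' median log2 differences moved by less than the SD between arrays of the same group, 0.23, in every setting. That SD was larger than most of the medians, so staying within it does not show that a median held. The median change between times fell from 0.23 to 0.03 without ethephon replicate 3 at 48 h. For water against untreated tissue at 24 h the median went from 0.14 to -0.04 with the 3'/5' index in the model. With a replicate block, that is with the replicate number as a term although the numbers did not pair the arrays (each array matched its own number best in 4 of 15 cases), 0 members passed and the medians were -0.28 at 24 h, -0.03 at 48 h and 0.23 for the change between times. The block changed the number of probe sets called for water against untreated tissue at 24 h to 96, against 182 without it. That number was 13 when the 3'/5' index was added to the model, 326 with array weights and 68 to 193 when arrays were left out in turn, lowest without water replicate 2 at 24 h. For water against untreated tissue at 48 h 84 probe sets were called, 189 with array weights, 49 without water replicate 1 and 51 without water replicate 2 at 48 h. For ethephon against water at 24 h array weights called 169 probe sets, none of them a member, where equal weights called 0, and 2 without water replicate 1. With the weights the lowest adjusted p among members was 0.0726 (limma), and 38 of 52 were lower. The cause of these shifts in counts was not tested. Leaving out single arrays kept the median at 24 h between -0.33 and -0.19, and that at 48 h between -0.21 and 0.08. For the change between times the range was 0.03 to 0.35. With 3 arrays a group and a prior that rests on all probe sets, a change would have to exceed several standard errors to pass, and signals near the limit of 218.3, as for hac106 and dmt106, carry more background.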
